A study of Homo sapiens with 24 samples.

Results

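The genes described here encode BET proteins, the HEXIM inhibitors of P-TEFb, the subunits of P-TEFb and factors that act with it in transcription elongation. They were chosen by name, as 10 listed symbols (BRD2, BRD3, HEXIM1, HEXIM2, CDK9, CCNT1, CCNT2, ELL2, AFF4 and SUPT5H), and all 10 were found among the 15862 genes of the deposited table. RNA-seq had been run on 24 libraries of LOUCY and JURKAT, established human T-cell acute lymphoblastic leukaemia lines. There were 6 untreated libraries of each line. A further 4 libraries each came from LOUCY after 24 h with JQ1 at 250 nM, with I-BET151 at 500 nM or with DMSO at 0.05%, which makes 5 groups. JQ1 and I-BET151 are BET inhibitors, which occupy the acetyl-lysine pocket of BET bromodomains, and DMSO was the vehicle. Each group was divided evenly between 2 experiments. Each line is a single established line, so differences between LOUCY and JURKAT are differences between these lines. The inhibitors were given to LOUCY alone.

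BET proteins carry paired bromodomains that bind acetylated histones at active genes. P-TEFb is the kinase CDK9 with cyclin T1 or T2; it phosphorylates RNA polymerase II and the pausing factors DSIF and NELF, which lets a paused polymerase enter the gene body. Much of the cell's P-TEFb is held inactive in the 7SK particle, a small nuclear RNA bound by HEXIM1 or HEXIM2 together with LARP7 and MEPCE. The super elongation complex joins P-TEFb to ELL proteins on an AFF1 or AFF4 scaffold. A rise of HEXIM1 RNA is widely used as a marker of BET inhibitor exposure in blood cells.

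Levels are the authors' RPKM (reads scaled to gene length and to library size), given as mean ± SD over libraries. Libraries held 4381134 to 7074198 reads in listed genes. Nothing in the labels says that numbered replicates were separate cultures, so p-values reflect the scatter among these libraries alone, which could be technical in part. All 10 T-lineage markers averaged 1 RPKM or more in JURKAT and 7 of 10 did in LOUCY, where CD2 (0.0562 RPKM), CD5 and PTCRA were near 0. The markers' summed level was 1611 to 2063 RPKM in DMSO libraries, 1062 to 1125 with JQ1 and 837.2 to 1214 with I-BET151. The B-lineage list summed to 322.1 to 589.3 RPKM in DMSO, 242.5 to 335.5 with JQ1 and 174.4 to 351.9 with I-BET151, and the myeloid list to 5.94 to 9.45, 1.63 to 3.61 and 2.37 to 3.30. The epithelial and stromal list, nearly all of it VIM, summed to 129.6 to 153.9, 223.2 to 259.3 and 199.02 to 224.4 RPKM, and the 1 erythroid marker in the table stayed under 1 RPKM. The part of these shifts in the results for the elongation genes was not tested. Replicate 1 of experiment 2 with I-BET151, replicate 1 of experiment 2 with DMSO and replicate 2 of experiment 2 of untreated LOUCY stood apart in how expression followed GC content. Their slopes were -0.313, -0.281 and -0.227 log2 units per 10 percentage points of GC, against -0.125 to 0.155 in the others.

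Per unit length, the members spanned a wide range, and their order differed between the lines. Averaged over the 24 libraries, BRD3 was the highest at 32.7 RPKM, above 83.8% of listed genes, and AFF4 the lowest at 2.46 RPKM, above 40.4%. Untreated LOUCY ran from BRD3 (38.9 ± 1.41 RPKM) through SUPT5H (25.1 ± 6.57), CDK9 (24.6 ± 3.23) and HEXIM1 (16.9 ± 1.72) to CCNT2, CCNT1, BRD2, HEXIM2, ELL2 and AFF4 (1.78 ± 0.435). Neighbours in that order whose libraries overlapped were SUPT5H with CDK9, CCNT2 with CCNT1, BRD2 with HEXIM2, and HEXIM2 with ELL2. Untreated JURKAT was led by SUPT5H (46.8 ± 13.4 RPKM), whose lowest library lay above the highest of BRD3 (14.6 ± 1.55), and ended with ELL2 (1.32 ± 0.365). In both inhibitor groups HEXIM1 stood first, at 53.1 ± 2.72 RPKM with JQ1 and 50.8 ± 7.05 with I-BET151, and its libraries lay above every BRD3 library of the same group.

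**Figure D1:**
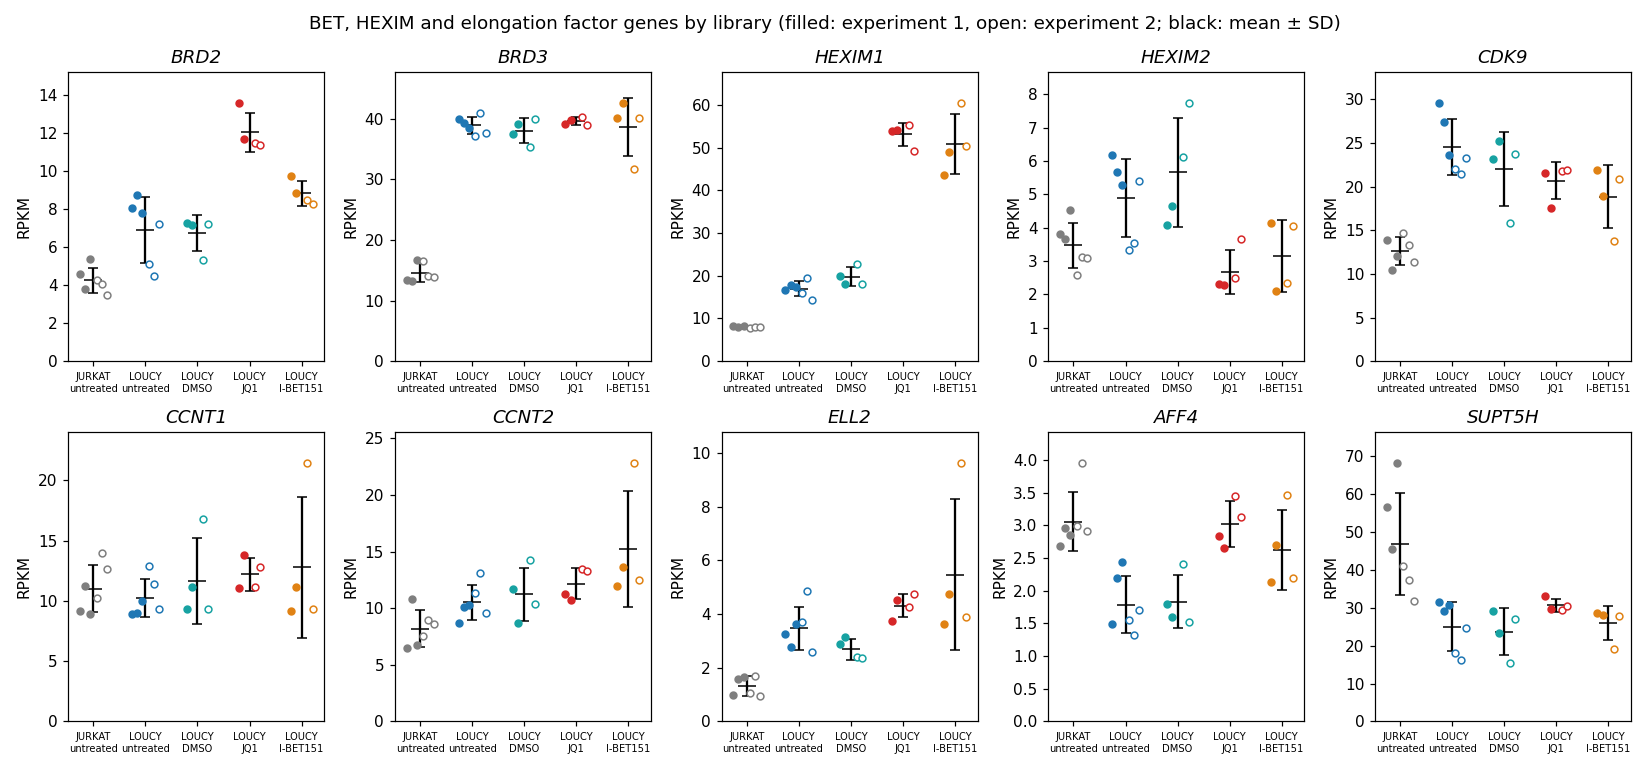
RPKM (vertical axes, each starting at 0) of the 10 genes in the 5 groups (horizontal axes), where points are libraries (experiment 1 filled, experiment 2 open), and black bars for mean ± SD (n = 6 for untreated groups, n = 4 for others). HEXIM1 lies between 43.6 and 60.5 RPKM in the 8 inhibitor libraries and between 14.3 and 22.8 in the other LOUCY libraries, while BRD3 separates only LOUCY from JURKAT.

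The level of BRD2 among these genes depends on the length it was divided by. The length implied by its RPKM and read counts was 33.6 kb, or 6.05 times the 5543 bases of its merged exons in GENCODE 29. Over 14850 genes the median of this ratio was 1.00, so the lengths and ratios are to be read relative to other genes. The same ratio was 0.929 for BRD3, 1.34 for HEXIM1, 1.64 for HEXIM2 and 0.962 to 1.02 for the other 6 members. BRD2 lies in the major histocompatibility region, and the 95 measured genes between 30 and 33 Mb on chromosome 6 had a median ratio of 6.91, against 1.01 over the rest of that chromosome. At its merged exon length BRD2 would stand at 41.7 ± 10.3 in untreated LOUCY, 25.7 ± 3.96 in JURKAT, 40.8 ± 5.73 with DMSO, 72.7 ± 6.31 with JQ1 and 53.4 ± 3.88 with I-BET151. Its mean would then lie above that of BRD3 in untreated LOUCY (38.9 ± 1.41 RPKM). The order of members given above therefore holds only for the authors' lengths. The other members were not rescaled, so these values do not give a new order. The divisor is shared by all libraries, so it cancels in a ratio between groups, although adding 1 RPKM before taking logs shrinks the log2 change of a gene more when its RPKM is low. BRD2 was in fact among the better counted members, with 587 to 2316 reads per library.

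LOUCY and JURKAT were first compared without treatment, to find which members differ between the lines at rest. Of the 10, 7 were higher in LOUCY, 2 were lower and CCNT1 did not pass, in a limma fit with Benjamini-Hochberg adjusted p under 0.05 as the threshold. Of all genes tested, 73.1% passed in this comparison (35.5% higher and 37.5% lower), so 9 of 10 is not far above what any gene would show. The members' median log2 difference was 0.48, against -0.02 over all tested genes. In bulk RNA, fewer cells that express a gene and less RNA per cell cannot be told apart.

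BRD3, a BET protein (GRCh38 chromosome 9, 134030305 to 134068535, minus strand), had the widest gap between the lines among the members. It ran from 37.2 to 40.9 RPKM in untreated LOUCY (median 38.8) and from 13.2 to 16.6 in JURKAT (median 13.95). No JURKAT library came near the LOUCY range, and the log2 difference was 1.36 (SE 0.08, limma adjusted p = 3.24e-10), with 1.39 in experiment 1 and 1.33 in experiment 2. BRD2 (chromosome 6, 32968660 to 32981505, plus strand) ran from 4.49 to 8.72 RPKM in LOUCY (median 7.49) and from 3.48 to 5.35 in JURKAT (median 4.13). These ranges overlapped, since LOUCY replicates 1 and 2 of experiment 2 lay at 5.08 and 4.49 RPKM. BRD2 was higher in LOUCY by 0.57 on the log2 scale (SE 0.12, limma adjusted p = 0.000422), with 0.73 in experiment 1 and 0.41 in experiment 2, where the adjusted p was 0.0768.

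BRDT, known as the testis BET protein, averaged at most 0.331 RPKM in any group and fell under the filter on low values.

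Both HEXIM genes, and both other protein genes of the 7SK particle, were higher in LOUCY. HEXIM1 ran from 14.3 to 19.4 RPKM in LOUCY (median 16.97) and from 7.69 to 8.33 in JURKAT (median 8.08). The 6 JURKAT values lay close together and far below the lowest LOUCY value. HEXIM1 was higher in LOUCY by 0.98 on the log2 scale (SE 0.08, limma adjusted p = 2.22e-08), with 0.99 and 0.97 in experiments 1 and 2. HEXIM2 overlapped between the lines, with 3.33 to 6.17 RPKM in LOUCY (median 5.34) and 2.58 to 4.55 in JURKAT (median 3.39). It was higher in LOUCY by 0.39 (SE 0.11, limma adjusted p = 0.00376), with 0.43 in experiment 1 and 0.35 in experiment 2, where the adjusted p was 0.121. LARP7, which protects the 7SK RNA, was at 46.5 ± 9.52 against 26.5 ± 1.88 RPKM (log2 difference 0.77, SE 0.10, limma adjusted p = 5.08e-06). MEPCE, which caps that RNA, was at 10.9 ± 2.27 against 7.07 ± 1.39 RPKM (log2 difference 0.56, SE 0.10, limma adjusted p = 0.000118).

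The kinase and the cyclins of P-TEFb did not move as a unit between the lines. CDK9 (chromosome 9, 127785679 to 127790787, plus strand) ran from 21.4 to 29.6 RPKM in LOUCY (median 23.5) and from 10.4 to 14.7 in JURKAT (median 12.7). The ranges did not overlap, and the log2 difference was 0.91 (SE 0.10, limma adjusted p = 9.13e-07), with 1.09 and 0.72 in experiments 1 and 2. CCNT1, cyclin T1 (chromosome 12, 48688458 to 48716998, minus strand), gave 10.2 ± 1.58 RPKM in LOUCY and 11.0 ± 1.98 in JURKAT, a log2 difference of -0.09 with a 95% interval of -0.30 to 0.12. CCNT2, cyclin T2 (chromosome 2, 134918235 to 134959342, plus strand), was higher in LOUCY, at 10.5 ± 1.54 against 8.19 ± 1.62 RPKM with overlapping ranges (log2 difference 0.34, SE 0.12, limma adjusted p = 0.0185). It passed in neither experiment alone (0.28, adjusted p = 0.191, and 0.39, adjusted p = 0.0518).

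Among the elongation factors, ELL2 was higher and AFF4 and SUPT5H were lower in LOUCY. ELL2, an ELL protein of the super elongation complex (chromosome 5, 95885098 to 95962071, minus strand), ran from 2.60 to 4.86 RPKM in LOUCY (median 3.45) and from 0.957 to 1.69 in JURKAT (median 1.32). The log2 difference of ELL2 was 0.94 (SE 0.14, limma adjusted p = 1.35e-05), with 0.82 and 1.07 in experiments 1 and 2, and the ranges did not overlap. AFF4, a scaffold of that complex (chromosome 5, 132875379 to 132963634, minus strand), ran from 1.32 to 2.43 RPKM in LOUCY (median 1.63) and from 2.68 to 3.95 in JURKAT (median 2.94). Again no library crossed over, and the log2 difference was -0.55 (SE 0.11, limma adjusted p = 0.000444). With a pseudocount of 0.1 it was -0.77 and with voom on the recovered reads -0.91. Within experiments 1 and 2 the difference was -0.35 (adjusted p = 0.0729) and -0.76. SUPT5H, the large subunit of DSIF (chromosome 19, 39436156 to 39476670, plus strand), ran from 16.2 to 31.5 RPKM in LOUCY (median 26.9) and from 31.9 to 68.2 in JURKAT (median 43.3). The highest LOUCY library fell just short of the lowest JURKAT library. The log2 difference was -0.87 (SE 0.11, limma adjusted p = 4.27e-06), with -0.86 and -0.88 in experiments 1 and 2.

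**Figure D2:**
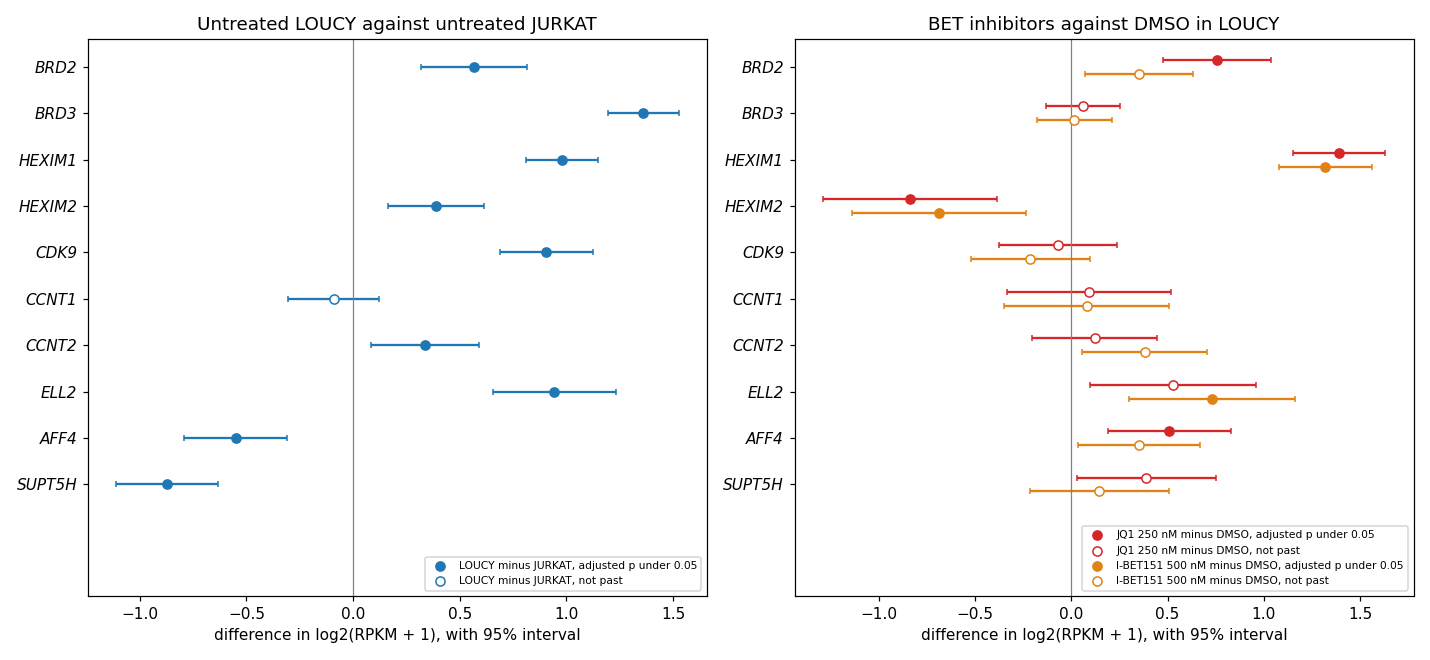
Differences in log2(RPKM + 1) with 95% intervals (horizontal axes) for the 10 genes (vertical axes): LOUCY minus JURKAT on the left (n = 6 per line), and each inhibitor minus DMSO in LOUCY on the right (n = 4 per group). Filled points passed an adjusted p of 0.05; HEXIM1 lies at 1.39 with JQ1 and 1.32 with I-BET151, HEXIM2 at -0.84 and -0.69.

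DMSO was compared with untreated LOUCY to see what the vehicle did. None of the 10 passed in limma, and 0 had an unadjusted p under 0.05, in a comparison where 0.175% of all genes passed (0.149% lower, 0.0263% higher). An unadjusted p under 0.05 was found for 1100 genes, and voom called 7 genes, 0 of them members. Log2 differences of the members ran from -0.26 for ELL2 to 0.21 for HEXIM1 (95% interval -0.01 to 0.43), and the ranges of the DMSO and untreated libraries overlapped for all 10. The share of all genes with such an overlap was not taken, so the overlap is not read as a result about the members. HEXIM2 was the least steady between experiments, at -0.32 in experiment 1 and 0.66 in experiment 2 (limma interaction, unadjusted p = 0.0114, adjusted p = 1.00). No member's interaction with the experiment passed in any of the 5 comparisons. At most 0.025% of all tested genes passed there, so this says little about the members.

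Each inhibitor was then set against DMSO to ask which members respond to BET inhibition in LOUCY. With JQ1, HEXIM1, BRD2 and AFF4 rose and HEXIM2 fell, and the other 6 did not pass. Across all genes 26% passed (10.1% higher and 15.9% lower), so 4 of 10 calls is a somewhat larger share than the background, from few genes. With I-BET151, HEXIM1 and ELL2 rose, HEXIM2 fell, and the other 7 did not pass. The background there was 26.3% (10.3% higher and 15.9% lower). The members' median log2 change was 0.26 with JQ1 and 0.25 with I-BET151, against -0.01 and 0.00 over all tested genes. Both comparisons use the same 4 DMSO libraries.

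HEXIM1 and HEXIM2 are neighbours on chromosome 17 (45148502 to 45152101 and 45160700 to 45170040, both on the plus strand), separated by 8598 bases. They were the members with the largest rise and the largest fall with JQ1. The bases upstream of their RefSeq starts (GRCh38.p14, 5′ to 3′) are shown because these adjacent paralogs moved in opposite directions. BRD2 and AFF4, which rose with JQ1, follow for comparison. Of the 10 members, 9 had an entry in the promoter table, and ELL2 had none. Capitals mark matches, on either strand, to CCAAT, to GGGCGG (a GC box), to TATAAA, to CACGTG (an E-box), to TGACGTCA or to TGANTCA.

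HEXIM1, chr17:45148225-45148474, plus strand: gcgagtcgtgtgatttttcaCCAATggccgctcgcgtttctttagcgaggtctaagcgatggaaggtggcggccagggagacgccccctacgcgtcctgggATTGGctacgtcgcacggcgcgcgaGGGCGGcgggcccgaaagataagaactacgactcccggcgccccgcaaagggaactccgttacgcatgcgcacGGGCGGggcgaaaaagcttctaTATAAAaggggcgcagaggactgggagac
HEXIM2, first start, chr17:45159924-45160173, plus strand: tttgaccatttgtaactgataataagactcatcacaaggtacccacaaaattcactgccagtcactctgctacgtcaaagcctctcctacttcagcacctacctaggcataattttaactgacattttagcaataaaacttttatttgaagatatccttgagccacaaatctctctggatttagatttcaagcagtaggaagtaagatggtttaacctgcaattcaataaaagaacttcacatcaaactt
HEXIM2, second start, chr17:45161625-45161844, plus strand: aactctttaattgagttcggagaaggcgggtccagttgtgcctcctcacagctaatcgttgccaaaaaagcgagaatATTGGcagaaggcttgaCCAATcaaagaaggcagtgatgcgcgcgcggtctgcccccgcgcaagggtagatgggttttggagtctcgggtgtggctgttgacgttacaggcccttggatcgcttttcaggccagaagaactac
BRD2, first start, chr6:32968344-32968593, plus strand: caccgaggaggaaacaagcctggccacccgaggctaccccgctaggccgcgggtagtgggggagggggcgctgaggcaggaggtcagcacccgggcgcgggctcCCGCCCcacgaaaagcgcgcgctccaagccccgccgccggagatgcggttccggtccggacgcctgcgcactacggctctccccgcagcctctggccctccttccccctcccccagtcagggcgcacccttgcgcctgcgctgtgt
AFF4, chr5:132963635-132963884, minus strand: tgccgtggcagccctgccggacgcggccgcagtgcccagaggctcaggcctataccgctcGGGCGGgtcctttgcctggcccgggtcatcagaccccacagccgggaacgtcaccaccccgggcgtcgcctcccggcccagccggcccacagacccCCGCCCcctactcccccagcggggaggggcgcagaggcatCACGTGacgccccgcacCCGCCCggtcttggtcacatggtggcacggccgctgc

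The HEXIM1 window held 2 matches to CCAAT, 2 to GGGCGG and 1 to TATAAA, with 31 CpG dinucleotides in 250 bases. The first HEXIM2 start had no match and 1 CpG, and the second had 2 CCAAT matches and 16 CpG in its 250 bases, of which the last, exonic stretch is not printed. The first of 4 BRD2 starts had 1 GC box match and no other, and AFF4 had 3, with 1 E-box. Over 35116 RefSeq promoters of the same length, 32.0% held CCAAT, 42.6% GGGCGG, 10.7% TATAAA, 6.34% CACGTG, 1.65% TGACGTCA and 6.57% TGANTCA. These matches describe letters in the windows and say nothing about binding in these cells.

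HEXIM1 stood at 19.9, 18.03, 22.8 and 18.2 RPKM in the 4 DMSO libraries. With JQ1 it reached 54.0, 54.1, 55.3 and 49.2 RPKM. With I-BET151 it reached 43.6, 48.9, 60.5 and 50.4 RPKM. Every inhibitor library lay far above the highest DMSO library, and the JQ1 values fell within the I-BET151 range. The log2 change was 1.39 with JQ1 (SE 0.11, limma adjusted p = 6.40e-08), with 1.46 in experiment 1 and 1.31 in experiment 2. For I-BET151 it was 1.32 (SE 0.11, limma adjusted p = 1.15e-07), with 1.24 and 1.395 in the same order. HEXIM1 rested on 445 to 731 reads per DMSO library and 1092 to 1680 per inhibitor library.

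HEXIM2 went down where HEXIM1 went up. In untreated LOUCY it ran from 3.33 to 6.17 RPKM. In DMSO it stood at 4.10, 4.67, 6.13 and 7.74 RPKM. Within experiment 2 DMSO lay above untreated LOUCY by 0.66 on the log2 scale. With JQ1 HEXIM2 was at 2.30, 2.27, 2.49 and 3.67 RPKM, all below the lowest DMSO library. The last of these lay within the untreated range. The log2 change of HEXIM2 with JQ1 was -0.84 (SE 0.21, limma adjusted p = 0.00715), with -0.71 in experiment 1 and -0.97 in experiment 2, where the adjusted p was 0.104. With I-BET151 it was at 4.13, 2.10, 2.36 and 4.04 RPKM, and the highest of these lay within the DMSO range and the untreated range. That change was -0.69 (SE 0.21, limma adjusted p = 0.0242), and within experiments 1 and 2 it was -0.43 and -0.94 (adjusted p = 0.157 and 0.104). The call with I-BET151 was lost without any one of 4 libraries: I-BET151 replicate 2 of experiment 1 (adjusted p = 0.0925), I-BET151 replicate 1 of experiment 2 (0.0732), and DMSO replicates 1 and 2 of experiment 2 (0.0541 and 0.0921). It was also lost without the 3 libraries of steep GC slope (adjusted p = 0.0878). HEXIM2 was counted from only 29 to 112 reads in the 12 DMSO and inhibitor libraries. An antisense gene, AC138150.1, overlaps both HEXIM genes and was not analysed here, and the libraries do not mark strand.

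The distance between the paralogs' levels widened with both inhibitors. HEXIM1 was 3.70 ± 1.03 times HEXIM2 within DMSO libraries and 3.68 ± 1.18 times within untreated LOUCY libraries, in RPKM per library. With JQ1 the ratio was 20.7 ± 4.92 and with I-BET151 17.98 ± 7.58, and the lowest inhibitor library (10.5) lay above the highest of the other LOUCY libraries (5.47). JURKAT stood at 2.39 ± 0.408. Against the kinase it inhibits, HEXIM1 went from 0.945 ± 0.336 times CDK9 in DMSO to 2.59 ± 0.352 with JQ1 and 2.85 ± 1.07 with I-BET151. These ratios are descriptions with no test, and they carry the gene lengths the authors used. The remaining protein genes of the 7SK particle passed with neither inhibitor: LARP7 changed by 0.00 and 0.22 on the log2 scale (limma adjusted p = 0.992 and 0.239), and MEPCE by 0.06 and 0.14 (0.807 and 0.545), with JQ1 and I-BET151.

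**Figure D3:**
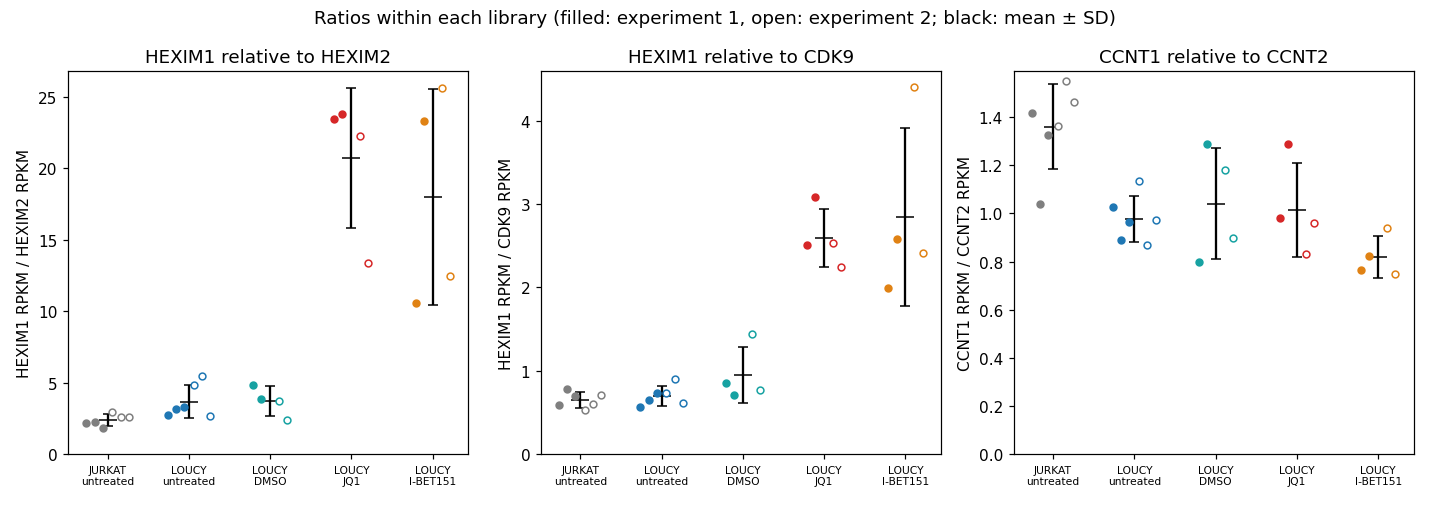
Ratio of RPKM values within each library (vertical axes, starting at 0) for HEXIM1 over HEXIM2, HEXIM1 over CDK9 and CCNT1 over CCNT2 in the 5 groups (horizontal axes), with points as libraries, filled for experiment 1 and open for experiment 2, and black bars for mean ± SD (n = 6 untreated, n = 4 others). HEXIM1 over HEXIM2 is 10.5 or more in the inhibitor libraries and 5.47 or less elsewhere.

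BRD2 rose with JQ1. It stood at 7.28, 7.15, 5.31 and 7.19 RPKM in DMSO and at 13.6, 11.6, 11.5 and 11.4 with JQ1. The groups were far apart, and the log2 change was 0.76 (SE 0.13, limma adjusted p = 0.000343), with 0.72 in experiment 1 and 0.79 in experiment 2, where the adjusted p was 0.124. With I-BET151 it was at 9.70, 8.84, 8.45 and 8.26 RPKM, again above every DMSO library, but the change of 0.35 (95% interval 0.07 to 0.63) had a limma adjusted p of 0.0605. That value crossed the threshold with median-of-ratios scaling (0.0454), with the GC trend removed (0.0027, or 0.0064 with a replicate block as well) and without DMSO replicate 2 of experiment 2 (0.0345). HLA-DMA, which overlaps the start of BRD2 on the other strand, had 75 reads or fewer in each DMSO and inhibitor library, against 1180 to 2316 for BRD2.

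BRD3, in contrast, was level across LOUCY. It stood at 37.5, 39.1, 35.3 and 40.0 RPKM in DMSO, at 39.1, 39.8, 40.3 and 38.9 with JQ1, and at 40.1, 42.6, 31.6 and 40.1 with I-BET151. Its log2 change was 0.06 with JQ1 (95% interval -0.13 to 0.25) and 0.02 with I-BET151 (-0.18 to 0.21), the narrowest intervals among the members.

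No P-TEFb subunit passed with either inhibitor. CDK9 was at 22.0 ± 4.22 RPKM with DMSO, 20.7 ± 2.10 with JQ1 and 18.8 ± 3.63 with I-BET151, with log2 changes of -0.07 (95% interval -0.38 to 0.24) and -0.21 (-0.52 to 0.10). CCNT1 changed by 0.09 (-0.33 to 0.52) and 0.08 (-0.35 to 0.51). DMSO replicate 1 of experiment 2 was at 16.8 RPKM and I-BET151 replicate 1 of experiment 2 at 21.4, both of steep GC slope. For CCNT1 the other 6 libraries of those groups ran from 9.17 to 11.2. CCNT2 changed by 0.12 with JQ1 and by 0.38 with I-BET151 (95% interval 0.06 to 0.71, limma adjusted p = 0.0792). It was at 11.98, 13.6, 22.8 and 12.5 RPKM with I-BET151, against 11.7, 8.69, 14.2 and 10.4 with DMSO. The I-BET151 change passed with voom (adjusted p = 0.0271) and without I-BET151 replicate 2 of experiment 2 (0.0201).

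ELL2 rose with I-BET151 and AFF4 rose with JQ1, and each had a positive change that did not pass with the other compound. ELL2 stood at 2.88, 3.14, 2.39 and 2.35 RPKM in DMSO. With JQ1 it was at 3.73, 4.51, 4.26 and 4.74 RPKM, and with I-BET151 at 3.63, 4.75, 9.63 and 3.88. All 8 inhibitor libraries lay above the DMSO range, and I-BET151 replicate 1 of experiment 2 stood far above the rest. Untreated LOUCY ran from 2.60 to 4.86 RPKM. That range held every JQ1 library, and every I-BET151 library other than replicate 1 of experiment 2. The log2 change with I-BET151 was 0.73 (SE 0.20, limma adjusted p = 0.0128), and without that library it was 0.46 (adjusted p = 0.0373). Within experiments it was 0.36 (experiment 1, adjusted p = 0.130) and 1.10 (experiment 2, 0.117). With JQ1 it was 0.53 (95% interval 0.10 to 0.96, adjusted p = 0.0666). The JQ1 value passed with voom (0.0197), with the GC trend removed (0.0083, or 0.0167 with a replicate block as well) and after leaving out the 3 steep-slope libraries (0.0081).

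AFF4 stood at 1.80, 1.60, 2.41 and 1.52 RPKM in DMSO. With JQ1 it was at 2.84, 2.65, 3.45 and 3.13 RPKM, above every DMSO library, and its log2 change was 0.51 (SE 0.15, limma adjusted p = 0.0181). That call was lost without DMSO replicate 2 of experiment 1 (adjusted p = 0.0543), DMSO replicate 2 of experiment 2 (0.0566) or JQ1 replicate 1 of experiment 2 (0.0571). The change of AFF4 was 0.47 within experiment 1 (adjusted p = 0.0685) and 0.55 within experiment 2 (0.284). With I-BET151 AFF4 was at 2.14, 2.69, 3.47 and 2.19 RPKM, overlapping DMSO, with a change of 0.35 (95% interval 0.03 to 0.67, adjusted p = 0.0974). It passed without DMSO replicate 1 of experiment 2 (0.0431). SUPT5H was at 29.2, 23.3, 15.4 and 27.1 RPKM with DMSO and at 33.1, 29.7, 29.3 and 30.4 with JQ1, which is just above the DMSO range. Its change of 0.39 (95% interval 0.03 to 0.75) had a limma adjusted p of 0.106, which became 0.0028 with the GC trend removed (0.0039 with a replicate block as well) and 0.0282 without DMSO replicate 2 of experiment 2. With I-BET151 SUPT5H changed by 0.15 (95% interval -0.21 to 0.51).

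The rest of the elongation pathway was read from lists by role, 30 genes beside the 10, of which 29 were tested. Between the lines 14 were higher in LOUCY and 7 lower, where 73.1% of all genes tested passed (35.5% higher and 37.5% lower). The smallest adjusted p values belonged to MLLT3, a YEATS-domain protein of the super elongation complex (13.1 ± 2.21 against 3.43 ± 0.537 RPKM, log2 difference 1.67), and ELL3 (22.0 ± 5.75 against 2.70 ± 0.6254, 2.62). AFF1, the other AFF scaffold of that complex, followed at 9.44 ± 0.644 against 3.25 ± 0.502 RPKM (1.30), and so did CTR9, a PAF1 complex subunit, at 48.0 ± 1.72 against 25.8 ± 1.71 (0.87). Their limma adjusted p values were 3.05e-10, 6.87e-10, 6.34e-09 and 9.73e-09. AFF1 and AFF4 thus differed in opposite directions between the lines.

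With JQ1, 0 of the 29 rose and 4 fell, and with I-BET151 1 rose and 4 fell. Both counts of falls include AFF3, whose call is set aside below. Of all genes tested, 26% passed with JQ1 (10.1% higher and 15.9% lower) and 26.3% with I-BET151 (10.3% higher and 15.9% lower). ELL3 fell from 27.2 ± 5.06 RPKM in DMSO to 16.97 ± 1.97 with JQ1 and 16.8 ± 3.57 with I-BET151 (log2 changes -0.64 and -0.66, limma adjusted p = 0.000444 and 0.000309), whereas ELL2 did not fall. AFF3 fell from 1.22 ± 0.200 RPKM to 0.617 ± 0.0665 and 0.415 ± 0.164 (-0.46 and -0.65, adjusted p = 0.00682 and 0.000363). It lay under the filter's 1 RPKM with both inhibitors, so it entered the test only through DMSO and untreated libraries. Its fall is near the floor, and its p-values are not read as support for it. LEO1, another PAF1 complex subunit, fell from 55.1 ± 8.41 RPKM to 41.6 ± 4.51 and 40.3 ± 5.54 (-0.39 and -0.44, adjusted p = 0.0212 and 0.0106). NELFCD, a NELF subunit, fell with JQ1 (-0.42, adjusted p = 0.0257). RTF1, a further elongation factor linked to the PAF1 complex, rose with I-BET151 from 22.0 ± 1.07 to 28.6 ± 3.88 RPKM (0.35, adjusted p = 0.0305). EAF2, an ELL-associated factor, was the remaining gene that fell with I-BET151 (-0.81, adjusted p = 0.0445), and is named outside the rule, after its value was seen. None of the 6 tested genes for the other CTD kinases and their cyclins (CDK7, CCNH, MNAT1, CDK12, CDK13 and CCNK) passed with either inhibitor.

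**Figure D4:**
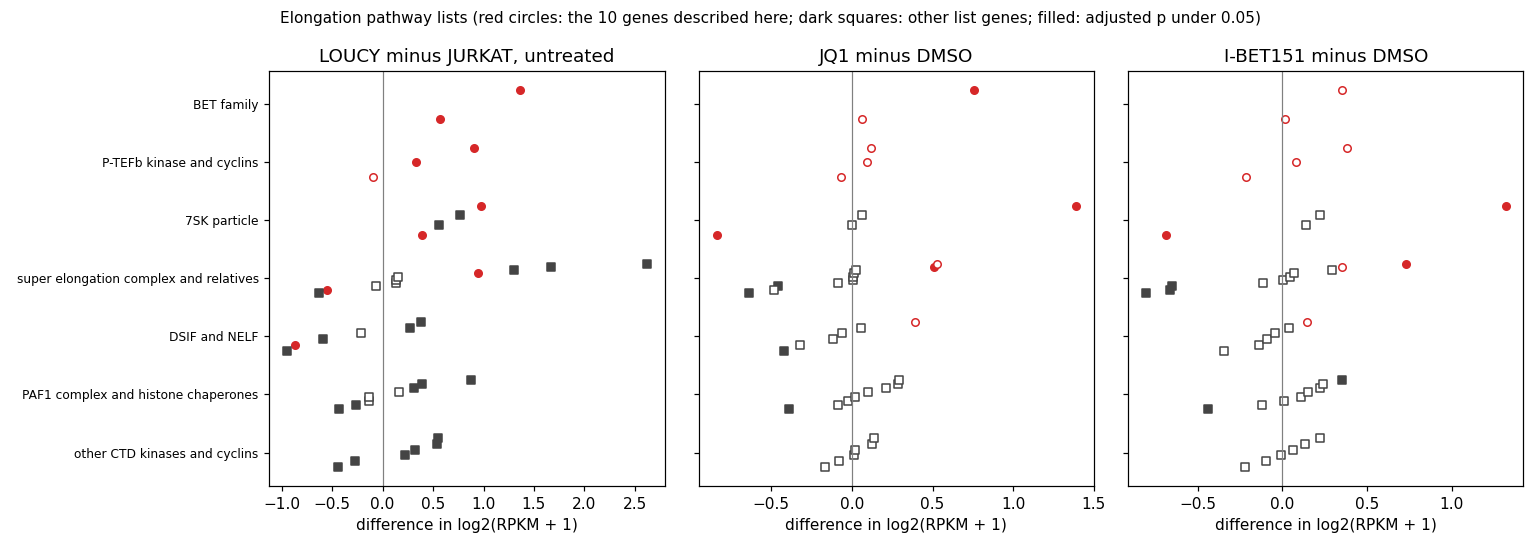
Differences in log2(RPKM + 1) (horizontal axes) for the 39 tested genes of 7 role lists (vertical axis) in 3 comparisons, with red circles for the 10 members, dark squares for other list genes and filled symbols for an adjusted p under 0.05. HEXIM1 (1.39 and 1.32) lies apart from the other list genes in both inhibitor panels, and ELL3 (2.62) in the comparison of the lines.

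JQ1 and I-BET151 were set side by side at the single dose of each, and these doses differ (250 and 500 nM), so the values do not compare the compounds at a matched dose. Of the 10 members, 0 passed in limma, as did 0% of all genes, while 531 genes and 1 member (BRD2) had an unadjusted p under 0.05 and voom called 0. BRD2 was higher with JQ1 by 0.41 (95% interval 0.12 to 0.69, adjusted p = 0.964), and the JQ1 libraries (11.4 to 13.6 RPKM) did not overlap those of I-BET151 (8.26 to 9.70). For HEXIM1 the difference was 0.07 (-0.17 to 0.31) and for HEXIM2 -0.15 (-0.60 to 0.30). The other 7 members differed by -0.26 (CCNT2) to 0.24 (SUPT5H).

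The genes whose pattern was most like a member's were found by Pearson r of log2(RPKM + 1) over libraries, among genes that averaged 5 RPKM or more. The libraries share groups and technical traits, so these are descriptions. Over the 18 LOUCY libraries HEXIM1 was most like MAP1LC3B, an autophagy protein gene (r = 0.986), followed by KIAA0226L (0.981), WDR47 (0.976), ADI1 (0.974) and APLP2 (0.974). MAP1LC3B stood at 82.2 ± 14.04 RPKM in DMSO, 192.5 ± 11.4 with JQ1 and 180.5 ± 14.3 with I-BET151. Over all 24 libraries the nearest to HEXIM1 were HIST2H2BE, a histone H2B gene (r = 0.980), and HOXB7, a homeobox gene (0.9753). The nearest to BRD2 were ACTG1 and POLR2A, the largest subunit of RNA polymerase II (both 0.962). Those nearest to BRD3 were PARVG (0.992) and LGALS1 (0.989), both of which are high in LOUCY and low in JURKAT. HEXIM2, the most thinly counted member, had weaker matches, SNHG15 (0.805) and CCDC57 (0.794). CCDC57 went from 8.70 ± 1.51 RPKM in DMSO to 3.09 ± 1.07 with JQ1 and 2.76 ± 0.565 with I-BET151. For the other 6 members the nearest gene had an r between 0.900 (AFF4 with LCMT2) and 0.965 (SUPT5H with HGS).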

How the data were processed

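RNA-seq was measured in 24 libraries. Per the labels' protocols, cDNA was made by Smart-seq2 and libraries by Nextera XT, which do not mark strand. The authors deposited RPKM values for 15862 genes. The submitters' processing notes name build hg38, edgeR 3.10.5, featureCounts, Subread 1.4.5-p1 and STAR 2.5.1b. The sources used here do not give the annotation or the gene lengths. Whole reads were recovered from the RPKM steps in 100% of genes (tolerance 0.01 reads) and used for depth, implied lengths and voom.

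From log2(RPKM + 1), genes that reached 1 RPKM in 4 or more of the libraries fitted were tested with limma 3.58.1 in R 4.3.3, two-sided, with an additive experiment term, a mean-variance trend and Benjamini-Hochberg adjustment over all genes tested (threshold 0.05). The lines were compared over 12 untreated libraries, and the other comparisons shared a fit of 18 LOUCY libraries. Python 3.11.15 was used for descriptions. Fits were tested on simulated data. Positions are from GENCODE 29. The members, lists and tests were chosen with earlier results of these data known. All 10 members are named, and other genes of the 7 role lists where they passed and were among the 4 smallest adjusted p values of a comparison, or belong to the BET family or 7SK particle; 1 gene that this rule would name is not reported here. For likeness, the nearest 2 genes per member (5 for HEXIM1 within LOUCY) are named, leaving out clone-based symbols. Alternatives were the pseudocount (0.1), filters (none, 5 RPKM), median-of-ratios scaling, voom, no experiment term, a replicate block, each experiment alone, removal of the GC trend, and leaving out libraries.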

Additional observations from a re-analysis of the deposited data

Results flagged for a closer look

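Dixon's test for a single outlying library was applied to each of the 10 members in each of the 5 groups. It marked 8 of these 50 sets. Chance marks about 1 in 20 where sets are independent, but the 10 members share the same libraries. No rate over all genes was taken, so the count is not read as an excess. Replicate 1 of experiment 2 with I-BET151, the library of steepest GC slope, was far from the other 3 for 3 members: CCNT1 at 21.4 RPKM, CCNT2 at 22.8 RPKM and SUPT5H at 19.2 RPKM. Replicate 1 of experiment 2 with DMSO, also of steep slope, was low for BRD2 at 5.31 RPKM. The part of GC content in these values was not tested gene by gene. With JQ1, BRD2 was high in replicate 1 of experiment 1 at 13.6 RPKM, CDK9 was low in replicate 2 of experiment 1 at 17.6 RPKM, and HEXIM2 was high in replicate 2 of experiment 2 at 3.67 RPKM. In JURKAT, AFF4 was high in replicate 2 of experiment 2 at 3.95 RPKM.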

How the results depend on the processing

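No change of a member past the threshold reversed under any alternative run. Of the 10 members, the count past the threshold was 4 for JQ1 against DMSO and 1 in experiment 2 alone; for I-BET151 against DMSO it was 3, and 1 in experiment 1 alone and 1 in experiment 2 alone, where fewer libraries enter the fit. HEXIM1 was the one left in each of these. Between the lines the count was 9, and 7 in experiment 1 alone (without CCNT2 and AFF4), 6 in experiment 2 alone (without BRD2, HEXIM2 and CCNT2) and 7 with a filter at 5 RPKM, which tests fewer genes. Leaving out 1 library gave 9 in every case between the lines, 3 to 4 for JQ1, 2 to 4 for I-BET151, and 0 for DMSO and for JQ1 against I-BET151. The counts were 6 and 4 for the inhibitors with the GC trend removed, and 5 and 2 after leaving out the 3 steep-slope libraries. These member counts are given without the share of all genes that passed under the same setting. They do not show whether the members differ from other genes. With voom the median of all genes between the lines was -0.12, against -0.02 in the fit reported, and 9 members passed. In no comparison did every pair of same-numbered replicates have correlated deviations over 0.1. The pairs over 0.1 were 2 of 6 between the lines, 1 of 4 for DMSO and untreated cells and 0 of 4 for JQ1 and DMSO. They were 2 of 4 for I-BET151 and DMSO (0.017 to 0.684) and 2 of 4 for JQ1 and I-BET151. Where both groups had 2 libraries per experiment, both pairs of an experiment have the same r by construction. For comparisons among DMSO, JQ1 and I-BET151 the 4 pairs are thus not 4 separate values. The replicate numbers were not taken to pair the libraries. With a replicate block the members' counts stayed at 9, 0, 4, 3 and 0, and the genes called for DMSO against untreated cells went from 20 to 4. Depth limits HEXIM2, ELL2 and AFF4 most.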
